A study of Gallus gallus with 24 samples.

Results

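The comparison described here is that of a diet with L-citrulline against a basal diet in the hypothalamus of female broiler chickens. Of 24 Ross 308 birds, 12 were read as female from their RNA. They were chosen by measured values: they are the 12 with the highest mean log2(CPM + 1) over the chromosome W genes that had at least 240 counts in all, where CPM is the count of a gene scaled to the total gene count of its library. This choice used 30 of the 103 chromosome W genes in the table. Female birds carry a Z and a W chromosome and males a pair of Z chromosomes, so W transcripts are a reading of sex. The score lay between 4.50 and 4.71 in the females and between 0.081 and 0.18 in the other 12 birds, with none between. No label states the sex of a bird.

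All birds were sampled on day 42, with 1 hypothalamus and 1 library per bird. Each treatment held 6 replicates of 12 chickens, and 1 bird was sampled from each replicate. Of the females, 2 ate the basal diet at 24 °C, 4 ate the basal diet with 1% L-citrulline at 24 °C, 2 ate the basal diet at 35 °C and 4 ate the L-citrulline diet at 35 °C. The temperatures ran from day 28 at 60% relative humidity. Thus 4 basal females were compared with 8 supplemented females, with temperature as a covariate. The males, 8 basal and 4 supplemented, entered only where the diet values of the sexes were compared. The W genes stayed in the fits and in the adjustment of p-values. Because W genes chose the birds, all were left out of the counts of genes and of the genes named. In the females, 14 of the 30 W genes that chose the birds were higher and 16 lower with L-citrulline. Their median log2 fold change was -0.013, with a range from -0.25 to 0.27.

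The hypothalamus sets feeding, body temperature, growth and reproduction through small groups of peptide and amine neurons around the third ventricle. L-citrulline is an amino acid that cells turn into arginine, first by ASS1 and then by argininosuccinate lyase. Arginine is the substrate of the nitric oxide synthases, which release citrulline again, and of the arginases. Nitric oxide widens blood vessels and acts as a messenger between neurons, and L-citrulline has been fed to poultry exposed to heat for its link to this pathway.

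Gene counts in the 12 female libraries numbered 12635239 to 14525246, and mitochondrial genes took 6.50% to 8.19%. The pieces of tissue differed between birds in their makeup, as the markers of cell types and brain regions showed in the heat map of marker levels. L-citrulline 24 °C bird 1 held 1569 summed CPM of 8 choroid plexus markers, against 135 to 320 in the other 11 females. L-citrulline 35 °C bird 3 held the lowest level of the oligodendrocyte markers, 15930 summed CPM, where the other females held 25906 to 55823. The 10 markers of hypothalamic neurons were highest in L-citrulline 24 °C birds 4 and 3, at 161 and 145 summed CPM, and lowest in bird 2 of that group, at 39.6. In the basal females they lay between 66.8 and 87.5. Anterior pituitary markers were low in every female, at 6.65 to 10.5 summed CPM. In these lists the 8 supplemented females spanned a wider range than the 4 basal females, as more birds tend to, and the diets overlapped in each list. For microglia markers the basal females spanned the wider range, 120 to 280 summed CPM against 152 to 256. They did so too for erythrocyte markers, at 77.3 to 170 against 82.5 to 153. The first 3 principal components of the females held 19.4%, 15.5% and 10.7% of the variance. On the first, L-citrulline 35 °C birds 1 and 2 lay at one end and bird 3 at the other, and on the second L-citrulline 24 °C bird 2 and birds 3 and 4 did, with the 4 basal females between them on both.

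**Figure D1:**
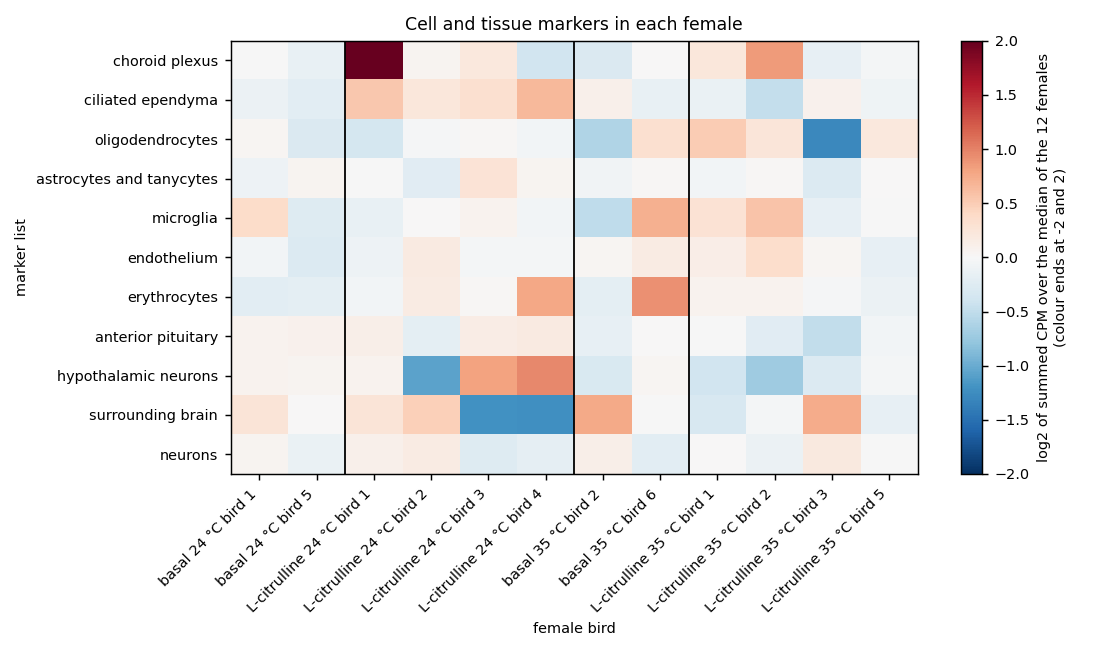
Level of marker genes in each female, as log2 of the summed CPM of each marker list over the median of the 12 females (colour, ending at -2 and 2), with 1 column per bird and 1 row per list. Choroid plexus in L-citrulline 24 °C bird 1 and oligodendrocyte markers in L-citrulline 35 °C bird 3 stand out, and hypothalamic neuron markers run from 39.6 to 161 summed CPM among the supplemented females.

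Among the leading genes of the diet comparison, those lower with L-citrulline included AMDHD1, an enzyme of histidine breakdown, and RASSF1, a tumour suppressor with a RAS association domain, and those higher included KIT, the receptor for stem cell factor, and MDFIC, a regulator of transcription factors. None of these differences passed the test across all genes. In edgeR's quasi-likelihood test with Benjamini-Hochberg adjustment, 0 of 13879 genes had an adjusted p under 0.05 (0%), and the smallest adjusted p was 0.431. At an unadjusted p under 0.05 there were 417 genes, 3% of those tested, of which 210 (1.51%) were higher and 207 (1.49%) lower. Without 1 female in turn this count ran from 337 to 663, the highest without L-citrulline 35 °C bird 3. Over all genes 52.4% were higher, the median log2 fold change was 0.0065, and the median standard error (SE) was 0.12. DESeq2 passed 2 genes and limma voom 0.

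The gene with the smallest p of all had no symbol in the table (ENSGALG00000038810, 25:3955647-3958419 in build GRCg6a, as are all coordinates here). It had 12.5 and 13.4 CPM in basal females at 24 °C, 13.8 and 12.6 at 35 °C, 17.2, 17.5, 17.3 and 16.6 CPM in supplemented females at 24 °C, and 18.7, 19.0, 19.4 and 21.0 at 35 °C. Every supplemented female was above every basal female. The log2 fold change was 0.48 ± 0.078 (SE, 95% confidence interval 0.32 to 0.65), with an adjusted p of 0.431 in edgeR and 0.00308 in DESeq2. In the males it was 0.019, and the difference between the sexes, 0.46 ± 0.13, did not pass. The other gene without a symbol named for a higher level, ENSGALG00000047313, had 1.495 ± 0.38 from means of 0.882 and 2.19 CPM, with overlapping diets. Those named for a lower level were ENSGALG00000039733 (-0.30 ± 0.098) and ENSGALG00000053425 (-0.55 ± 0.18). In bulk tissue, fewer cells of a type and less RNA per cell cannot be told apart, for these genes and for those that follow.

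MDFIC (1:25905669-25955951) had 47.9, 45.6, 47.8 and 42.1 CPM in the 4 basal females and 49.1 to 62.0 CPM in the 8 supplemented females, with a median of 56.3. The diets did not overlap, and the log2 fold change was 0.26 ± 0.057. For 32 genes (0.231% of those tested) the 2 diets did not overlap in CPM, 17 (0.122%) of them higher and 15 (0.108%) lower with L-citrulline, and a gene chosen for a small p tends to be among them. RASSF1 (12:1850401-1855177) had 20.9, 22.0, 22.2 and 18.6 CPM in basal females and 14.6 to 18.0 CPM in supplemented ones, again without overlap (-0.36 ± 0.081). VPS37B, a subunit of the ESCRT-I sorting complex, had 18.3 to 23.1 CPM in basal females and 23.7 to 28.0 CPM in supplemented ones (0.26 ± 0.068). PARVB, the focal adhesion protein beta-parvin, had 31.7 to 34.2 CPM against 35.1 to 45.8 CPM (0.26 ± 0.070). Neither overlapped.

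AMDHD1 (1:45700558-45708415) had 1.73, 3.22, 2.34 and 2.33 CPM in basal females and 0.871 to 1.58 CPM in supplemented ones (-0.87 ± 0.23). BPIFB3, of the family of BPI fold proteins, had 2.71, 2.91, 2.76 and 2.56 CPM in basal females and 0.757 to 1.98 CPM in supplemented ones (-1.08 ± 0.27). Both were low genes, with at most 41 and 39 counts in a female library, and neither overlapped between the diets. BFSP2, the beaded filament protein of the lens, was lower still, with at most 15 counts (0.937 against 0.417 CPM, -1.16 ± 0.33).

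A further 4 leading genes with a symbol overlapped between the diets. SMPDL3B, a membrane-bound relative of acid sphingomyelinase, had a median of 17.0 CPM in basal and 12.6 CPM in supplemented females (-0.42 ± 0.11). C1orf174 had means of 30.7 and 25.04 CPM (-0.30 ± 0.079). KIT (4:65269770-65321836) had 24.97, 20.5, 20.2 and 17.2 CPM in basal females and 20.5 to 37.7 CPM in supplemented ones (0.50 ± 0.14), and CASC1, a protein of motile cilia, had means of 3.60 and 5.48 CPM (0.61 ± 0.17). None of the leading genes passed in edgeR.

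**Figure D2:**
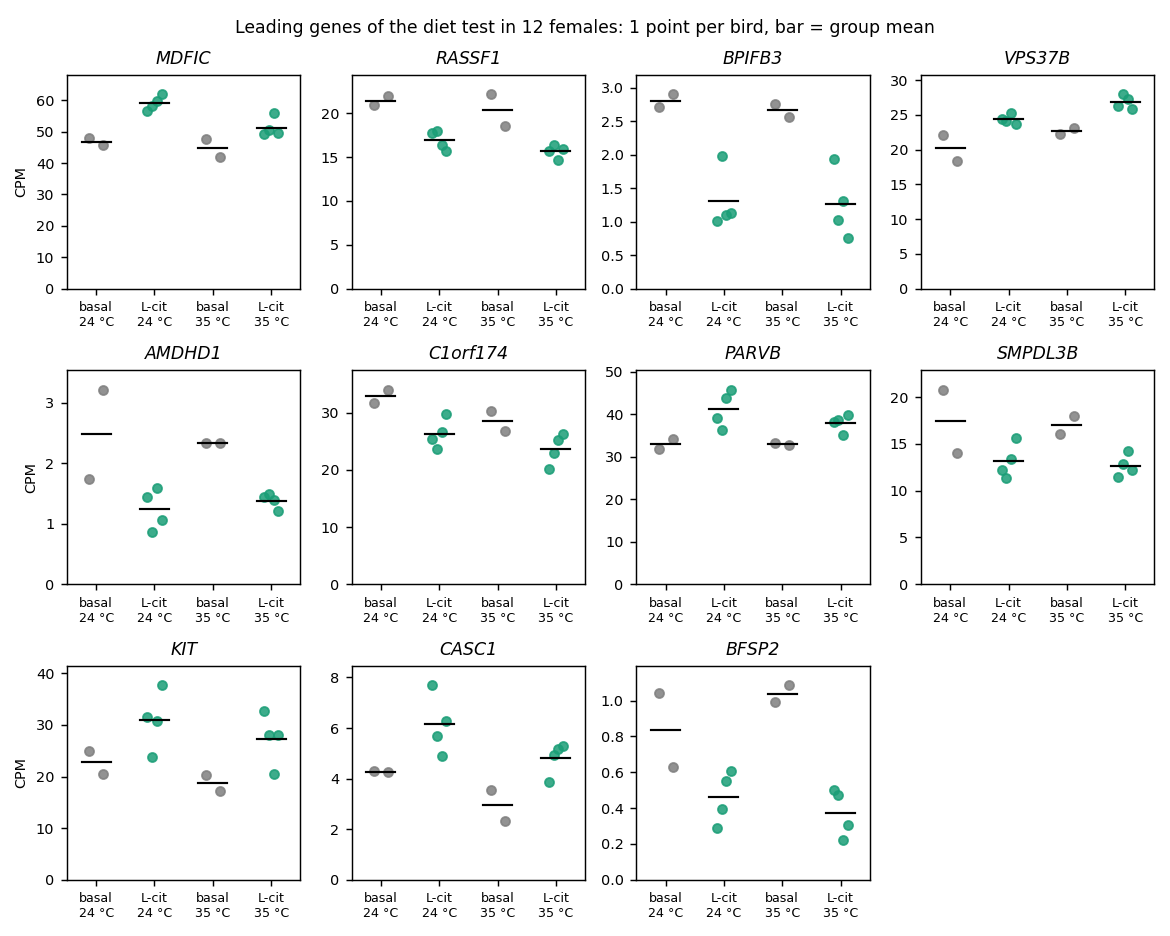
CPM of 11 leading genes with a symbol in the 12 females, with 1 point per bird, grey for the basal and green for the L-citrulline diet, a bar for the group mean, and axes that start at 0. MDFIC, RASSF1, BPIFB3, VPS37B, AMDHD1, PARVB and BFSP2 do not overlap between the diets, and SMPDL3B, C1orf174, KIT and CASC1 do.

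The genes that handle citrulline, arginine and nitric oxide showed no common direction in females. Of 26 symbols on the list 19 were found among the genes counted, and 18 were kept after the filter on low counts. Of these 18, 9 were higher and 9 lower with L-citrulline, with a median of -0.0012. At an unadjusted p under 0.05 there was 1 of the 18, beside 3% of all genes. That gene was ASS1 (17:6180976-6201571), the enzyme that condenses citrulline with aspartate. It had 52.4, 71.3, 71.5 and 69.7 CPM in basal females and 54.7, 58.2, 47.6, 45.7, 58.5, 61.2, 58.5 and 57.4 CPM in supplemented ones. Of the 4 basal females 3 were above all supplemented females, and basal 24 °C bird 1 lay among the supplemented ones. The log2 fold change was -0.26 ± 0.090 (-0.45 to -0.07), which did not pass, and it was -0.18 without basal 24 °C bird 5 and -0.34 without basal 24 °C bird 1.

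The next enzyme, argininosuccinate lyase, gives its name to a pair of neighbouring genes on chromosome 19, ASL1 and ASL2, which in birds encode the delta crystallins of the lens. The counts do not show which of the pair makes active enzyme. The pair is near-identical, and reads could be split between them in counting, so their separate values are uncertain. ASL2 had means of 25.6 and 23.2 CPM (-0.14 ± 0.15), and ASL1, with at most 30 counts in a female, 1.17 and 1.90 CPM (0.71 ± 0.28). Among the nitric oxide synthases, neuronal NOS1 had 0.077 ± 0.25 (22.1, 24.6, 31.3 and 16.2 CPM in basal and 13.9 to 41.7 CPM in supplemented females), endothelial NOS3 had -0.19 ± 0.12, and inducible NOS2 had -0.051 ± 0.11. The diets overlapped in all 3. ARG2, the mitochondrial arginase, had 39.1 and 39.5 CPM (0.0075 ± 0.099, -0.21 to 0.22). Downstream of nitric oxide, PDE5A, which breaks down cyclic GMP, had 0.24 ± 0.15 and GUCY1A1, a subunit of the nitric oxide receptor, had -0.18 ± 0.12. Of 16 amino acid transporters 12 were higher, with a median of 0.049 and none at an unadjusted p under 0.05.

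Feeding peptides and their receptors were also without a passing gene, with 9 of 26 higher, 17 lower and a median of -0.061. That median was -0.19 without basal 24 °C bird 1 and -0.0018 without basal 35 °C bird 2. At 24 °C 17 of 26 were higher (median 0.081), at 35 °C 20 of 26 were lower (median -0.22), and the interaction was negative for 21 of 26 (median -0.40). At an unadjusted p under 0.05 there was 1 gene at each temperature, higher in each case, beside 2.54% and 3.67% of all genes. The interaction had 1 higher and 1 lower, beside 3.09%. Medians of the markers of hypothalamic regions had the same signs (0.23, -0.051 and -0.29). The members share their libraries and tissue pieces, and the part of tissue makeup was not tested. NPY, the appetite-stimulating peptide (2:31464055-31472130), had 84.4 and 82.3 CPM in basal and 45.3, 43.3, 89.8 and 86.0 CPM in supplemented females at 24 °C. At 35 °C it had 46.4 and 85.9 CPM in basal and 202, 164, 63.8 and 126 CPM in supplemented females. At both temperatures the diets overlapped, with log2 fold changes of -0.34 ± 0.42 at 24 °C and 1.08 ± 0.44 at 35 °C, and the difference of the 2, 1.42 ± 0.60, did not pass. POMC, which is cut into the melanocortins that restrain feeding, stood at 1.30 and 1.47 CPM (-0.0093 ± 0.45), and TAC1, the precursor of substance P, at 72.9 and 70.2 CPM (-0.099 ± 0.20). Of the other feeding genes, CCK, a satiety peptide, had -0.43 ± 0.44 and NPY2R, a receptor of NPY, 0.18 ± 0.11. Genes of the stress axis (5 higher, 8 lower, median -0.019), the thyroid axis (7 and 5, 0.036) and the growth axis (13 and 4, 0.067) followed. They held 0 members at an unadjusted p under 0.05, beside 3% of all genes, a share that is few genes in lists of this size. GHRH, which drives growth hormone release, was picked after its values were seen and went against most of the growth list. It had -0.77 ± 0.37 from 25.9 and 15.1 CPM.

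In females the cytosolic ribosomal protein genes lay largely on one side. They encode the protein parts of the machinery that makes proteins. Of 68 kept, 65 were lower and 3 (RPL21, RPS28 and RPS19) higher with L-citrulline. The median log2 fold change was -0.094, with a range from -0.25 to 0.032, beside 0.0065 over all genes. At an unadjusted p under 0.05, 10 of the 68 (14.7%) were lower, where 1.49% of all genes were, and none passed the adjusted threshold. RPS29 (5:57737586-57738431) had 76.3, 73.3, 76.1 and 79.6 CPM in basal females and 58.2 to 73.0 CPM in supplemented ones, without overlap (-0.25 ± 0.075). RPL27 had -0.16 ± 0.063, RPL32 -0.19 ± 0.074 and RPL36 -0.16 ± 0.063, and these overlapped between the diets.

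As a share of all gene counts, ribosomal protein genes took 1.10%, 1.25%, 1.11% and 1.24% in the 4 basal females and 1.01% to 1.19% in the 8 supplemented ones. The ranges overlapped, with means of 1.17% ± 0.081 (SD, n = 4) and 1.11% ± 0.064 (SD, n = 8). Ribosomal protein genes share their libraries and vary together, so the number of members that were lower is no count of independent observations. Their transcripts are short, with a median length of 1020 bases. Among the other genes, the fifth with the shortest transcripts, with a median length of 1071 bases, had a median log2 fold change of -0.017 in females, and the fifth with the longest had 0.018. The median of the ribosomal list was -0.063 without basal 24 °C bird 5, -0.14 without basal 35 °C bird 2, and between these without any other female.

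Nuclear genes of the respiratory chain, whose proteins make ATP in mitochondria, were lower in 52 of 64, with a median of -0.075. At an unadjusted p under 0.05 there were 6, all lower, where 1.49% of all genes were. These genes also share their libraries, so 52 is no count of independent observations. In males 49 of 64 were lower with L-citrulline, with a median of -0.041, and the median difference between the sexes was -0.029. NDUFA2, of complex I, had 37.9, 37.7, 35.1 and 35.8 CPM in basal females and 28.5 to 35.5 CPM in supplemented ones, which overlapped through a single supplemented bird (-0.22 ± 0.068). UQCRH, of complex III, had -0.18 ± 0.068, and ATP5MC3, of the ATP synthase, -0.15 ± 0.059. Proteasome subunits were lower in 33 of 38 with a median of -0.052. The member with the smallest p, the proteasome activator PSME4, went the other way (0.16 ± 0.049, 74.0 and 82.5 CPM, without overlap). Of the 13 genes of the mitochondrial genome 10 were lower, with a median of -0.0073, and ND6, a complex I subunit, had -0.27 ± 0.095. ND6 lies on the opposite strand to the others, and no source used here says that the counting used strand.

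**Figure D3:**
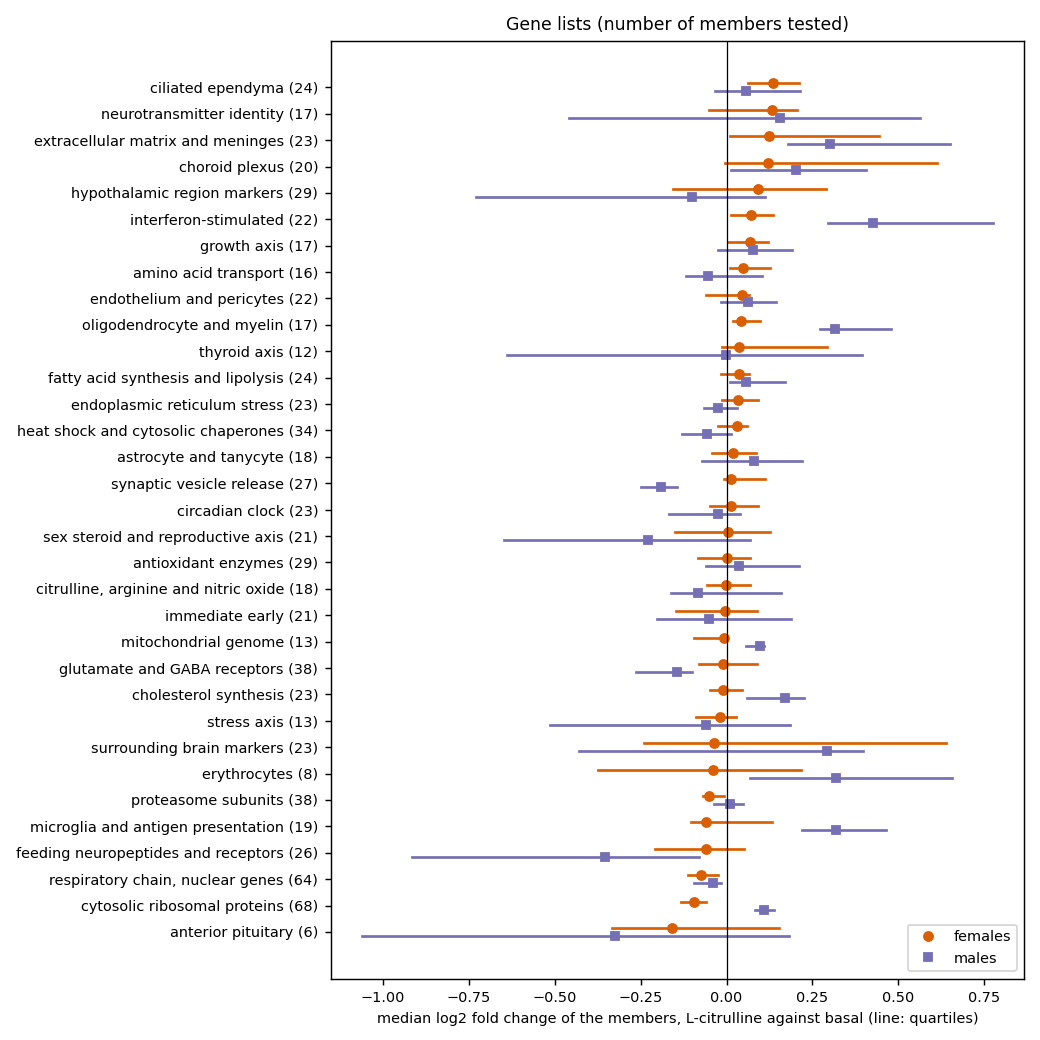
Median log2 fold change of each gene list with L-citrulline, with lines over the quartiles of the members, for females (orange) and males (violet), and the number of members tested in brackets. The ribosomal protein list lies at -0.094 in females and 0.11 in males, and the interferon list at 0.071 and 0.43.

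The next question was whether the diet values of females differed from those of males, which was tested as the sex-by-diet term of a fit to all 24 birds. In edgeR 0 of 14047 genes passed (0%), with a smallest adjusted p of 0.33. At an unadjusted p under 0.05 there were 742 (5.28%), of which 381 (2.71%) were higher and 361 (2.57%) lower in females than in males. Without 1 bird in turn this count ran from 475, without basal 35 °C bird 6, to 1106. DESeq2 passed 1 gene, TH, and limma voom 0.

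TH, tyrosine hydroxylase, makes the dopamine and noradrenaline precursor L-DOPA (5:13911444-13927845). In females it had 5.34 and 4.40 CPM on the basal and 11.8, 12.9, 8.61 and 8.47 CPM on the supplemented diet at 24 °C. At 35 °C females had 3.90 and 2.64 CPM on the basal and 2.37, 3.69, 6.87 and 8.55 CPM on the supplemented diet. In males it was 4.34 to 11.2 CPM in the 8 basal birds and 2.03 to 2.80 CPM in the 4 supplemented birds. Within a temperature, female diets thus overlapped at 35 °C and not at 24 °C, with supplemented birds on the high side, and male diets did not overlap, with supplemented birds on the low side. Among all genes the diets did not overlap in 10.4% in females at 24 °C, with 2 birds against 4, and in 1.06% in males. The log2 fold change was 0.91 ± 0.30 in females and -1.36 ± 0.31 in males, and their difference was 2.27 ± 0.43 (1.39 to 3.15). Its adjusted p was 0.33 in edgeR and 0.000859 in DESeq2. Of 24 edgeR fits that each left out 1 bird, TH passed in 1, with 0.0382 without L-citrulline 35 °C bird 1.

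SLC18A2, which loads dopamine and the other monoamines into vesicles, had 0.41 ± 0.30 in females and -1.25 ± 0.30 in males, a difference of 1.66 ± 0.41. DDC, which turns L-DOPA into dopamine, had 0.21 ± 0.26 and -0.80 ± 0.27, a difference of 1.01 ± 0.38. Neither passed. DBH, which turns dopamine into noradrenaline, was below the filter, with at most 4 counts in a female. Of the 17 genes of neurotransmitter identity as a whole, 9 were higher and 8 lower in females than in males, with a median of 0.022. Of 29 markers of hypothalamic regions tested, 20 had a higher diet value in females than in males, with a median difference of 0.25. At an unadjusted p under 0.05, 2 were higher, where 2.71% of all genes were. That median was 0.13 without the male L-citrulline 35 °C bird 6 and 0.44 without the male L-citrulline 24 °C bird 6. In males 19 of 29 were lower with L-citrulline. Their summed share of the counts was 0.0194% to 0.0258% in basal and 0.0147% to 0.0369% in supplemented females, and 0.0187% to 0.0316% and 0.0210% to 0.0289% in the males. The part of this tissue makeup in the TH value was not tested.

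Other leading genes of the difference by rule were CNTNAP5, an adhesion protein of the neurexin family (0.66 ± 0.15), NME7, a protein of microtubule-organizing centres and cilia (0.48 ± 0.12), and ADAMTS15, a protease of the extracellular matrix (-0.74 ± 0.19). For CNTNAP5 the females had 25.8 to 38.4 CPM on the basal and 30.1 to 48.0 CPM on the supplemented diet, and the males 32.9 to 40.4 and 21.1 to 30.4 CPM. NME7, CNTNAP5 and ADAMTS15 each had a diet value of larger size in the males (-0.39, -0.47 and 0.59). ASL1, whose separate value is uncertain beside its neighbour ASL2, had 0.71 in females and -0.62 in males, and NOS2 had -0.051 and 0.41. Their differences, 1.33 ± 0.35 and -0.46 ± 0.13, did not pass.

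**Figure D4:**
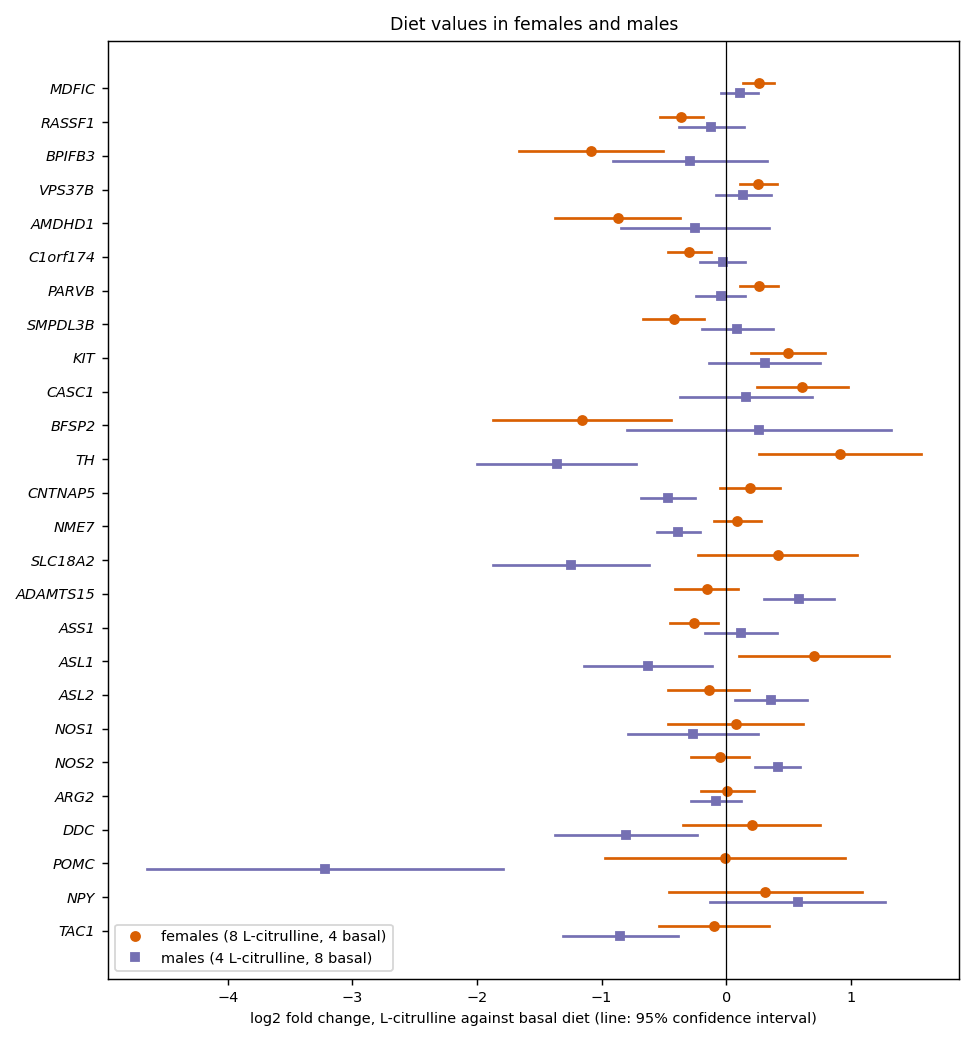
Log2 fold change with L-citrulline for named genes in females (orange circles, 8 supplemented and 4 basal birds) and males (violet squares, 4 supplemented and 8 basal birds), with lines for the 95% confidence interval. Female values are from the fit of the females alone and male values from the fit of both sexes, so their intervals rest on different estimates of the spread. TH lies at 0.91 in females and -1.36 in males, while MDFIC, RASSF1 and VPS37B have the same sign in both sexes.

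Ribosomal protein genes had diet values of opposite sign in the sexes. With L-citrulline 65 of 68 were lower in females and 63 of 68 higher in males, where the median was 0.11. The difference was negative for 67 of 68, with a median of -0.20. At an unadjusted p under 0.05, 40 of the 68 (58.8%) were lower in that difference, where 2.57% of all genes were, and none passed the adjusted threshold. In males the list took 1.11% to 1.26% of the counts of the 8 basal birds and 1.23% to 1.29% of the 4 supplemented birds, overlapping. The median difference of the list was between -0.24 and -0.16 on leaving out each of the 24 birds.

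Synaptic vesicle genes, which serve the release of transmitters, were higher in 17 of 27 in females (median 0.014, or -0.042 without basal 35 °C bird 6) and were lower in 25 of 27 in males (median -0.19). The difference had 25 of 27 higher in females, with a median of 0.22 and 5 at an unadjusted p under 0.05, where 2.71% of all genes were higher at that p, among them SYNGR1 (0.32 ± 0.10) and RAB3C (0.43 ± 0.14). In females the 22 interferon-stimulated genes had a median of 0.071, and of -0.076 without L-citrulline 35 °C bird 2. The median difference from males was -0.35, and it was 0.089 without the male L-citrulline 35 °C bird 6, so that its direction rested on that bird. Myelin genes had a median of 0.043 in females, which was -0.11 without basal 35 °C bird 2 and 0.18 without basal 35 °C bird 6. In males all 17 were higher, with a median of 0.31. All 17 had a negative difference, with a median of -0.28 (-0.077 without the male L-citrulline 35 °C bird 4), and none had an unadjusted p under 0.05 for it. Microglia and antigen presentation genes were lower in that difference in 17 of 19, with a median of -0.33 (-0.16 without basal 24 °C bird 1, -0.50 without basal 35 °C bird 2). Cholesterol synthesis genes were lower in it in 22 of 23, with a median of -0.15 (-0.021 without the male L-citrulline 35 °C bird 4). The microglia and cholesterol lists each held 1 gene at an unadjusted p under 0.05, lower, where 2.57% of all genes were. Members of each of these lists share their libraries, so the numbers of members are no counts of independent observations. The part of these cell types in the synaptic values was not tested.

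**Figure D5:**
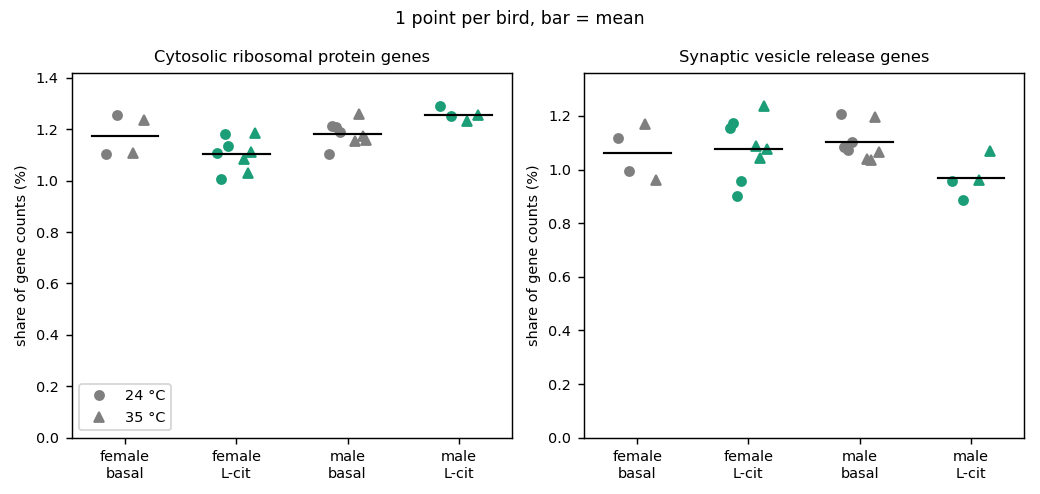
Share of all gene counts of a library taken by ribosomal protein genes (left) and synaptic vesicle genes (right), with 1 point per bird (circles 24 °C, triangles 35 °C), a bar for the mean, and axes that start at 0. Ribosomal protein genes take 1.01% to 1.19% in supplemented females and 1.23% to 1.29% in supplemented males.

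L-citrulline was last compared within each temperature, with 2 basal and 4 supplemented females in each. At 24 °C 0 of 13879 genes passed in edgeR (0%), with 353 (2.54%) at an unadjusted p under 0.05, 211 (1.52%) higher and 142 (1.02%) lower, while DESeq2 passed 1 and limma voom 0. At 35 °C 0 passed (0%), with 510 (3.67%) at an unadjusted p under 0.05, 299 (2.15%) higher and 211 (1.52%) lower, and DESeq2 and limma voom passed 0 and 0. Of the counts on leaving out 1 female, the highest in place of the 510 was 1199, without L-citrulline 35 °C bird 3. The difference between the temperatures, tested as the interaction, had 0 genes in edgeR (0%), 2 in DESeq2 and 0 in limma voom. At an unadjusted p under 0.05 it had 429 (3.09%), 230 (1.66%) of them higher and 199 (1.43%) lower. The highest such count on leaving out 1 female was 843, without the same bird, and the lowest was below 429.

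MLPH, melanophilin, which ties pigment granules to a myosin motor (7:4815805-4833602), led at 24 °C. It had 12.7 and 9.35 CPM in basal and 31.7, 21.0, 22.9 and 29.0 CPM in supplemented females at 24 °C, and 19.8 and 15.9 against 13.6, 11.1, 14.2 and 18.0 CPM at 35 °C. The diets were apart at 24 °C, as in 10.4% of all genes with 2 birds against 4, and overlapped at 35 °C. The log2 fold changes were 1.24 ± 0.23 and -0.33 ± 0.21, and their difference was -1.56 ± 0.31. DESeq2 gave the 24 °C value an adjusted p of 0.00240 and the difference one of 0.0347, and edgeR passed neither.

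SLC22A15, a transporter of the organic cation family (1:81130221-81161028), had 16.5 and 15.01 CPM in basal and 10.001, 7.76, 10.7 and 9.07 CPM in supplemented females at 24 °C. At 35 °C it had 8.08 and 9.24 CPM in basal and 10.3, 11.7, 12.3 and 10.4 CPM in supplemented females. The diets were apart in opposite directions, with -0.75 ± 0.14 at 24 °C and 0.37 ± 0.15 at 35 °C. In either direction they were apart in 10.4% of all genes at 24 °C and in 9.71% at 35 °C. The difference was 1.13 ± 0.21, with an adjusted p of 0.0387 in DESeq2, and it did not pass in edgeR. TPPP3, which bundles microtubules, had 0.30 ± 0.11 at 24 °C and -0.38 ± 0.11 at 35 °C.

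At 35 °C the leading genes were AP2S1, a subunit of the clathrin adaptor (-0.35 ± 0.077), GSTA4L, a glutathione transferase (-1.93 ± 0.45), and TET2, which oxidizes methylcytosine in DNA (0.37 ± 0.088). GSTA4L had 15.03 and 25.9 CPM in basal and 3.30, 11.1, 3.36 and 3.86 CPM in supplemented females there. In none of the 3 did the diets overlap at 35 °C, as in 9.71% of all genes, and at 24 °C their log2 fold changes were -0.037, -0.023 and -0.12.

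Genes of the ciliated ependyma, which lines the ventricles and moves their fluid with motile cilia, had diet values of opposite sign at the 2 temperatures. At 24 °C 22 of 24 genes were higher with L-citrulline, with a median of 0.37, and 6 of them had an unadjusted p under 0.05, where 1.52% of all genes did in that direction. At 35 °C 17 of 24 were lower, with a median of -0.15 and 1 lower at an unadjusted p under 0.05, where 1.52% of all genes were. The interaction was negative for 22 of 24, with a median of -0.61 and 3 at an unadjusted p under 0.05, where 1.43% of all genes were negative at that p. Ependyma genes share their libraries and tissue pieces, so in neither case is 22 a count of independent observations. FOXJ1, the regulator of motile cilia (18:4495739-4501676), had 10.5 and 10.999 CPM in basal and 19.1, 15.5, 14.8 and 21.3 CPM in supplemented females at 24 °C. At 35 °C it had 12.2 and 10.3 CPM in basal and 10.1, 8.32, 12.3 and 11.9 CPM in supplemented females. The diets were apart at 24 °C only (0.71 ± 0.19, against -0.077 ± 0.19), as in 10.4% of all genes at that temperature. The interaction, -0.79 ± 0.26, did not pass. HYDIN, of the central pair of the cilium, had 0.80 ± 0.20 at 24 °C and 0.21 ± 0.20 at 35 °C.

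The 7 ependyma markers found in the table, DNAH9 not being among them, summed to 68.0 to 73.0 CPM in basal and 91.9 to 124 CPM in supplemented females at 24 °C. At 35 °C they summed to 71.2 to 84.2 and 56.5 to 83.3 CPM. Choroid plexus, which also lies in the ventricles, was high in L-citrulline 24 °C bird 1, and the other 3 supplemented females at 24 °C, at 135 to 204 summed CPM, overlapped with the basal females. TTR, its main secreted protein, had 1484 CPM in that bird and 31.9 to 90.6 CPM in the other 3, and its log2 fold change over both temperatures was 1.75 ± 1.26, or 0.52 without that bird. Neither NKX2-1, a marker of the hypothalamus (-0.23 ± 0.58), nor MBP, of myelin (0.11 ± 0.28), passed. How much of each piece was ventricle wall was not tested.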

How the data were processed

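Hypothalamus libraries of 24 birds, 1 per bird, were grouped by the labels' diet and temperature, and sex was read from chromosome W counts. The members and gene lists were chosen with earlier results of these data known. The deposited read counts per gene were used as they stand; the tools listed in the submitters' processing notes are TopHat, HISAT2, HTSeq and DESeq, the build is GRCg6a, and tool versions were not given there. FPKM was computed by the authors from those counts (largest relative difference from count over length and total 5.13e-15) and is not quoted here. The table holds 16779 genes, 4303 of them without a symbol. The authors' comparison, enrichment and heat map tables were not used here.

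In R 4.3.3, genes kept by filterByExpr were scaled by TMM and fitted with edgeR 4.0.16 (quasi-likelihood F test, Benjamini-Hochberg, threshold 0.05). The model for the 12 females held diet and temperature, with 9 residual degrees of freedom. The fit of 24 birds held diet and temperature within sex, with 18, and the fit by temperature used 4 cell means, with 8. Diet values of females and their SE are from the fit of 12 females, and those of males from the fit of 24 birds. DESeq2 1.42.0 and limma 3.58.1 (voom) were alternatives, and the code was tested on simulated data. CPM uses the library's total gene count. Values after ± are SE unless called SD.

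Named genes were the 12 with a symbol and the smallest p in females, 6 for the difference between the sexes, 3 at each temperature and for the interaction, up to 4 per list, and a fixed set for citrulline, feeding and tissue; 2 genes that the rule names are not reported here. NOS2, ASL1 in the difference, DDC, DBH, GHRH, SYNGR1, RAB3C and the 3 ribosomal genes that were higher were chosen after their values were seen. No 2 libraries of females of a group were copies (chi-square per degree of freedom 7.25 to 68.3 over 14 pairs). With 1 bird per replicate, p-values measure the spread between birds. No sequences are shown.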

Additional observations from a re-analysis of the deposited data

Results flagged for a closer look

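In 38 named genes, the supplemented females at 24 °C and at 35 °C, 4 each, were searched for a bird far from its group. Of 76 groups searched, 5 had one, and chance gives about 1 in 20. BPIFB3 was 1.98 CPM in L-citrulline 24 °C bird 2, with the nearest other bird at 1.13. TTR was 1484 CPM in L-citrulline 24 °C bird 1, with the nearest at 90.6. At 35 °C, CNTNAP5 was 30.1 CPM in L-citrulline bird 1 (nearest 39.5), NME7 was 20.9 CPM in bird 3 (nearest 18.1) and GSTA4L was 11.1 CPM in bird 2 (nearest 3.86). The groups of 2 basal females were too small to search.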

How the results depend on the processing

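The count of genes past the threshold was 0 in edgeR for each of the 5 comparisons, and also 0 with limma voom, other scaling factors (RLE), either other filter, all 24 birds sharing the spread, no temperature term, the mean of the contrasts at each temperature, 1 temperature effect for both sexes, and without W genes, wherever each was run. DESeq2 gave 2 genes in females (1 of them ENSGALG00000038810), 1 for the difference between the sexes (TH), 1 at 24 °C (MLPH), 0 at 35 °C and 2 for the interaction (MLPH and SLC22A15). The cause was not tested. Leaving out 1 bird gave 0 in every case but the difference between the sexes, with 0 to 1: ENSGALG00000028466 (-0.62 ± 0.099, adjusted p 0.0437 in edgeR), named after its values were seen, without basal 35 °C bird 2, and TH without L-citrulline 35 °C bird 1.

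Of 8 same-numbered pairs of females 1 had a correlation of deviations over 0.1 (-0.15 to 0.14), and of 44 other-numbered pairs 4 did (-0.34 to 0.12). Over all birds 6 of 36 and 34 of 180 pairs did. So few pairs cannot exclude a shared cage or day, and the labels do not say what the numbers mark. With the replicate block the count was 0 in all 5 comparisons, and 3 genes turned sign: POMC 0.33, NOS1 -0.18 and ARG2 -0.037. The count at an unadjusted p under 0.05 for the difference between the sexes was 436 with the block and 742 without. POMC, at -0.0093, also turned to 0.092 with limma voom, 0.0027 with a mean of at least 1 CPM and 0.17 without the temperature term. Without 1 female in turn, POMC ran from -0.25 to 0.54, ARG2 from -0.063 to 0.11, NOS1 from -0.086 to 0.26, TAC1 from -0.19 to 0.019, MBP from -0.066 to 0.28 and NKX2-1 from -0.50 to 0.25. Of the list medians under another tool, scaling or the block, 294 moved by less than the SD of the list's mean between females of a group and 3, all with the block, by more: heat shock genes in females (-0.017), and heat shock (0.037) and pituitary genes (0.71) in the difference. Only 4 basal females limit every value here.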

Other observations

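No gene of the lists that follow passed the threshold in edgeR, and over all genes the median log2 fold change in females was 0.0065. Members of a list share their libraries, so their numbers are no counts of independent observations. Heat shock and cytosolic chaperone genes, which refold damaged proteins, were higher in 21 of 34 with a median of 0.032. In males 23 of 34 were lower, with a median of -0.056. The difference between the sexes was positive for 24 of 34, with a median of 0.093. In it 6 were higher at an unadjusted p under 0.05, where 2.71% of all genes were. DNAJB4, an HSP40 cochaperone, had 0.17 ± 0.065 in females and -0.12 ± 0.056 in males. Circadian clock genes were higher in 13 of 23 with a median of 0.012, and the clock repressor CRY1 had -0.17 ± 0.071 in females and -0.19 ± 0.073 in males. Immediate early genes, which neurons switch on with activity, were lower in 16 of 21 at 24 °C (median -0.21) and higher in 17 of 21 at 35 °C (median 0.20). At an unadjusted p under 0.05 they held 1 gene at 24 °C and 0 at 35 °C, beside 2.54% and 3.67% of all genes. Genes of the extracellular matrix and meninges were higher in 18 of 23 with a median of 0.12, which was -0.0035 without L-citrulline 35 °C bird 2. LUM, a collagen-binding proteoglycan, had 0.84 ± 0.46 in females and 0.55 ± 0.45 in males.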
